A study of Homo sapiens with 18 samples.

Results

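The comparison described here sets the melanoma line A375M2 transduced with full-length PMEL against the same line transduced with GFP, over every annotated gene on the arrays. Its members are 6 of the 18 arrays of the series, chosen by their labels: 3 of A375M2 PMEL and 3 of A375M2 GFP. A375M2 is a metastatic derivative of the human melanoma line A375. Its arrays are described as 3 separate experiments, but the values of the third arrays are tied, as given below. The other 12 arrays hold A375M2 and C32 melanoma cells with short hairpin RNAs against FHL2 or NFYA, and C32 cells with GFP.

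The PMEL cells carried a lentiviral vector in which the CMV promoter drives His6X-tagged PMEL, followed by an IRES and eGFP, so that PMEL and eGFP came from 1 transcript. They were selected with blasticidin. The GFP cells carried a GFP vector without PMEL. The labels describe an empty vector of the same design and also a copGFP vector used with puromycin, and they do not say which of them these arrays hold, so an effect of the vector or the drug and an effect of PMEL cannot be told apart. In both arms the cells with the highest GFP were sorted and kept under selection. The labels do not say how many cells founded each sorted population.

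PMEL is a membrane glycoprotein of pigment cells. It is sorted into multivesicular endosomes, cut by proprotein convertases and by the protease BACE2, and its lumenal part forms the amyloid fibrils on which melanin is laid down in the maturing melanosome. The gene is a target of MITF, the transcription factor that directs the melanocyte lineage. Melanoma lines range from pigmented cells that make PMEL to undifferentiated cells that have lost it, and the undifferentiated cells are known for high AXL, NT5E, SOX9 and WNT5A and for strong adhesion and matrix programmes.

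Levels below are log2 signals, and differences are PMEL minus GFP on the same scale, so that 1 is a 2-fold and 0.58 a 1.5-fold change. A gene was called when its p-value from limma, adjusted over all 10940 genes tested, was under 0.05. "Rose" and "fell" are used of called genes only. A moderate change is a called change of at least 1.5-fold and under 3-fold.

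The third array of each arm has to be described first. At each gene, the sum of PMEL replicate 3 and GFP replicate 3 matched the sum of the mean of PMEL replicates 1 and 2 and the mean of GFP replicates 1 and 2. Over the 8935 genes with both group means at log2 6 or more, the deviation of PMEL replicate 3 from the mean of the other PMEL arrays and that of GFP replicate 3 from the mean of the other GFP arrays each had an SD of about 0.10. Their sum had an SD of only 0.00581, and the correlation across genes was -0.998. For replicates 1 and 2 the same sums had SDs of 0.146 and 0.147. The 2 arrays of number 3 also shared 514 exact low values with each other and 0 with any array of number 1 or 2, while arrays 1 and 2 shared 511 to 518 across the arms. Replicate 3 therefore adds less independent information than its number implies, and the count of each gene list is given below with and without it. The labels do not say how these values came about.

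**Figure D1:**
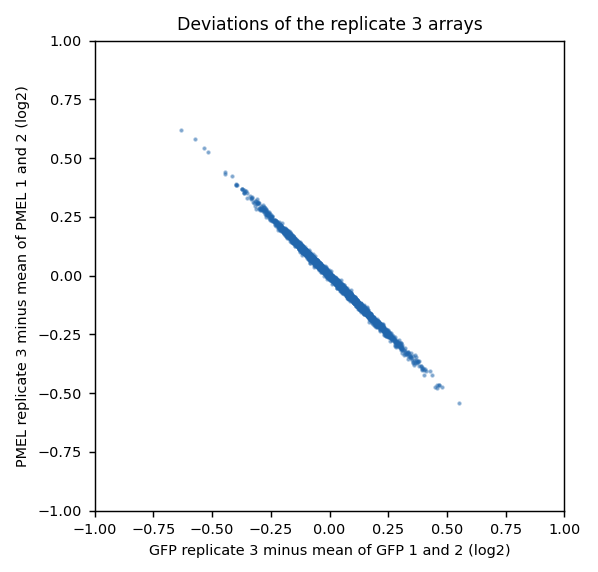
Each point is a gene (8935 genes with both group means at log2 6 or more). The deviation of PMEL replicate 3 from the mean of PMEL replicates 1 and 2 (vertical axis, log2) is plotted against the deviation of GFP replicate 3 from the mean of GFP replicates 1 and 2 (horizontal axis, log2); the points lie on a falling line (correlation -0.998 across genes).

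Among the control probe sets, the arms differed most at 18S ribosomal RNA, which read 11.08 ± 0.02 in the PMEL arrays and 12.52 ± 0.03 in the GFP arrays (SD, n = 3 each), against 11.06 ± 0.02 and 11.09 ± 0.02 for 28S. Poly-A spike-ins averaged 6.90 in PMEL and 7.15 in GFP, hybridisation spike-ins 12.07 and 12.12, and the 3′ minus 5′ difference of actin 0.74 ± 0.08 and 0.61 ± 0.13. The part of these differences in the results was not tested. Of the melanocyte lineage markers, SOX10, MITF, GPNMB and S100B were at log2 12 or more in both arms, whereas MLANA was at 2.27 in PMEL and 2.38 in GFP, near the low end of the scale, and TYR at 4.36 and 4.44. Their summed signal without PMEL was 62463 to 64947 in the PMEL arrays and 59754 to 61920 in the GFP arrays. Of these 9 markers 3 rose and 3 fell (2 and 3 without replicate 3). PMEL, which the vector supplies, is counted among the rises. None of 5 epithelial markers was called, but without replicate 3 there was 1 called higher. The haematopoietic markers PTPRC and LYZ lay under log2 4 in both arms.

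The PMEL arrays differed from the GFP arrays at many genes by small amounts and at fewer by a moderate amount. Of 10940 genes, 4365 (39.9%) were called, 2419 (22.1%) higher and 1946 (17.8%) lower, but 3650 of them differed by less than 1.5-fold. Moderate changes were called at 632 genes (5.78%): 253 rose (2.31%), with a median difference of 0.74, and 379 fell (3.46%), with a median of -0.78. At 1.5-fold or more in all, 715 genes were called (6.54%), 265 higher (2.42%) and 450 lower (4.11%). At 3-fold or more, 12 rose (0.11%) and 71 fell (0.649%). At 2-fold or more the count was 234 (2.14%), 57 higher (0.521%) and 177 lower (1.62%). The arms did not overlap at 5447 genes (49.8%). The median difference over all genes was 0.015. The shares of all genes that were higher (22.1%) and lower (17.8%) are the background for the list counts below.

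The moderate set lay below the middle of the range of signal. The genes that rose had a median level of 6.95 in the PMEL arrays and 6.18 in the GFP arrays, and those that fell 6.75 in PMEL and 7.57 in GFP. The medians of the 6 arrays over all probe sets were 8.13 to 8.20. A group mean under log2 4 was found at 32 of the 253 that rose and 60 of the 379 that fell. With values under log2 4 set to 4, 588 of the 632 kept their call and direction. Without replicate 3 of both arms, 643 genes were called at a moderate size, and 591 of the 632 kept their call and direction. With only these 6 arrays and the array set (numbers 1 and 2, or 3) as a block, a fit chosen after seeing the data, 533 of the 632 kept theirs. Of the 234 genes at 2-fold or more, 232 and 229 kept their call and direction in these fits.

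**Figure D2:**
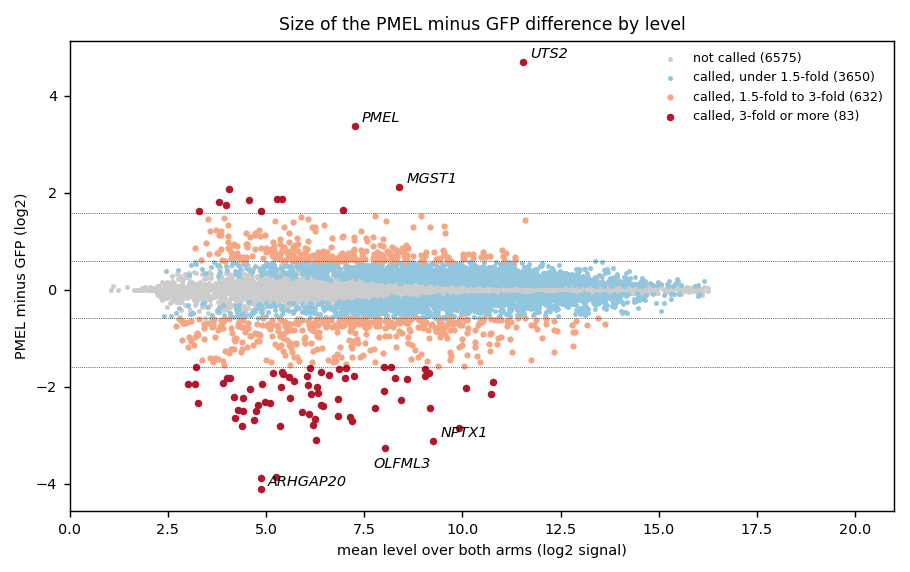
Each point is 1 of 10940 genes, with the mean level over both arms (log2 signal) on the horizontal axis and the PMEL minus GFP difference (log2) on the vertical axis. Dotted lines mark 1.5-fold and 3-fold; 632 called genes lie between them, 83 beyond them and 3650 called genes inside them.

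PMEL itself, measured by 1 probe set, was 9.0, 8.88 and 8.96 in the PMEL arrays, against 5.78, 5.37 and 5.55 in the GFP arrays. The arms were far apart, with a difference of 3.38 ± 0.13 (SE; adjusted p = 1.59e-12), or 10.4-fold. In bulk RNA, a change in the share of cells that express a gene and a change in RNA per cell cannot be told apart. C32 cells with GFP, which carry no added PMEL by the labels, had 7.61 ± 0.12 (SD, n = 2). The A375M2 cells with short hairpin RNAs against FHL2 and NFYA had 3.35 ± 0.24 and 3.25 ± 0.06 (SD, n = 3 each).

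The largest rise of all genes named here was not PMEL but UTS2, which encodes the vasoactive peptide urotensin-2. UTS2 was 13.86, 13.84 and 13.99 in the PMEL arrays, against 9.33, 9.19 and 9.11 in the GFP arrays, 25.8-fold higher in PMEL cells. It lay at 2.24 in each of the 4 other groups of the series, the low end of the scale, so the GFP cells of A375M2 already had a signal that the A375M2 cells with short hairpin RNAs did not show.

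**Figure D3:**
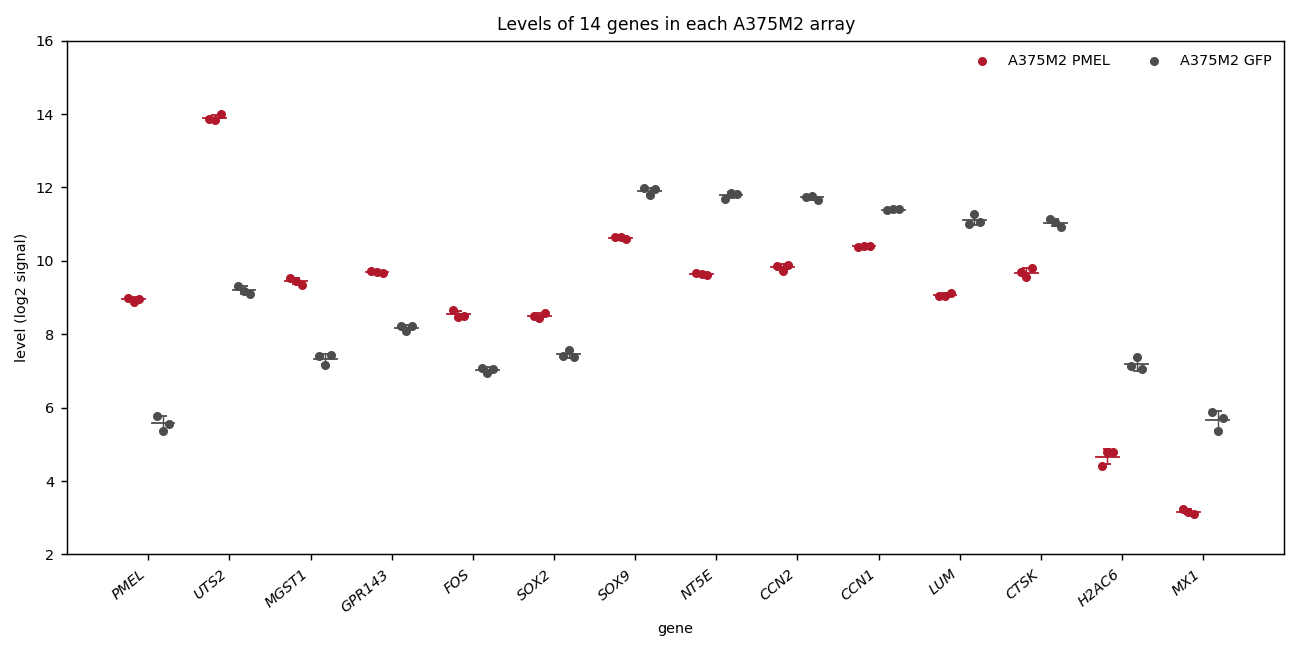
Levels (log2 signal) of 14 genes in each array, A375M2 PMEL to the left of A375M2 GFP for each gene. Points are arrays, horizontal lines means and bars SDs (n = 3); the arms do not overlap at any of the 14 genes, and PMEL, UTS2, MGST1, GPR143, FOS and SOX2 are higher and the others lower in PMEL.

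Pigment cell genes did not move as a block. Of 30 measured genes of melanosomes and pigmentation, 7 rose (23.3%), 6 fell (20%) and 17 were not called, with a median difference of 0.03, close to the shares over all genes. Without replicate 3, 6 rose and 4 fell. The rises include PMEL, the gene that the vector supplies. GPR143, the G protein-coupled receptor of the melanosome membrane that is mutated in ocular albinism, was 9.72, 9.70 and 9.66 in the PMEL arrays, against 8.24, 8.09 and 8.22 in the GFP arrays. That is a rise of 2.85-fold with no overlap between the arms. CDK2, whose gene lies next to PMEL on chromosome 12 and is a known MITF target, rose by 0.61. TYRP1, a melanin-synthesis enzyme, differed by -0.58 (adjusted p = 0.0756 without replicate 2) and the melanosome transport adaptor MLPH by -1.46. APOD, a secreted lipocalin, showed the largest fall of the list, with 6.45, 6.48 and 6.10 in PMEL against 8.09, 7.91 and 8.36 in GFP. MITF itself differed by 0.13 (adjusted p = 0.0542) and TYR by -0.08 (adjusted p = 0.717), and neither was called.

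Falls outnumbered rises in the machinery that cuts PMEL and keeps amyloid in check. Of 21 measured genes, 9 fell (42.9%, against 17.8% of all genes) and 2 rose, with a median of -0.16; without replicate 3, 9 fell and 1 rose. BACE1, the beta-secretase, was 9.57, 9.55 and 9.56 in the PMEL arrays, against 10.29, 10.16 and 10.22 in the GFP arrays, and BACE2, the related protease that releases the fibril-forming part of PMEL, was 11.75, 11.73 and 11.70 in the PMEL arrays, against 12.19, 12.14 and 12.21 in the GFP arrays. The changes were moderate for BACE1 (-0.66) and smaller for BACE2 (-0.45). The sheddase ADAM17 differed by -0.29, and the BRICHOS-domain proteins ITM2B and ITM2C by -0.23 and -0.31. FURIN, a proprotein convertase, at 0.12 (adjusted p = 0.53) and APOE at -0.18 (adjusted p = 0.571) were not called.

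The endosomal sorting machinery of melanosomes, in contrast, changed by less than 1.5-fold throughout: 9 of 34 measured genes rose (26.5%), 4 fell and the median was 0.07. LYST, mutated in Chediak-Higashi syndrome, rose by 0.46 and the ESCRT ATPase VPS4B by 0.39, while the BLOC-1 subunit BLOC1S2 fell by 0.30 on the log2 scale. Without replicate 3, 7 rose and 3 fell, and in the fit with array set as a block 3 rose and 1 fell.

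Falls also outnumbered rises among lysosomal genes, mostly by little. Of 54 measured, 26 fell (48.1%, against 17.8% of all genes) and 6 rose, with a median of -0.12. Without replicate 3, 16 fell and 5 rose, and in the fit with the array set as a block 12 fell and 3 rose. Cathepsins led the falls. CTSK, a collagen-degrading cathepsin, was 9.70, 9.55 and 9.79 in the PMEL arrays, against 11.13, 11.05 and 10.93 in the GFP arrays, with a difference of -1.36 ± 0.16 (SE; adjusted p = 2.67e-06). CTSS had 4.84, 4.39 and 4.82 in PMEL against 5.33, 5.81 and 5.35 in GFP, and CTSB, CTSZ and CTSL differed by -0.43, -0.29 and -0.24. SMPD1, the acid sphingomyelinase, differed by -0.71, and subunits of the proton pump such as ATP6AP1 and ATP6V0D1 by -0.27 and -0.24. LAMP3, a lysosome-associated protein of dendritic cells, went against the list with a rise of 1.17. TFEB, a regulator of lysosomal genes, was not called (0.19, adjusted p = 0.323).

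Chaperones of the endoplasmic reticulum, where PMEL folds before its transport, fell more often than they rose. Of 34 measured genes, 17 fell (50%, against 17.8% of all genes), 2 rose and none changed by 1.5-fold. Without replicate 3, 16 fell and 1 rose, but with the array set as a block 9 fell and 1 rose. The largest falls were FKBP14 at -0.45, DNAJC10 at -0.41 and the disulphide isomerase PDIA6 at -0.40, but for FKBP14 and DNAJC10 the direction depends on the probe set. HSP90B1 differed by -0.31 and HSPA5, the chaperone BiP that marks the unfolded protein response, was 14.52, 14.52 and 14.47 in the PMEL arrays, against 14.64, 14.69 and 14.71 in the GFP arrays. Transcripts of the ATF4 branch were split, with 9 of 37 higher, 11 lower and a median of 0.01; without replicate 3, 8 were higher and 7 lower, and with the array set as a block 4 and 3. ATF3 rose by 0.92, whereas NUPR1 differed by -1.09. ASNS was not called (0.02, adjusted p = 0.695).

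**Figure D4:**
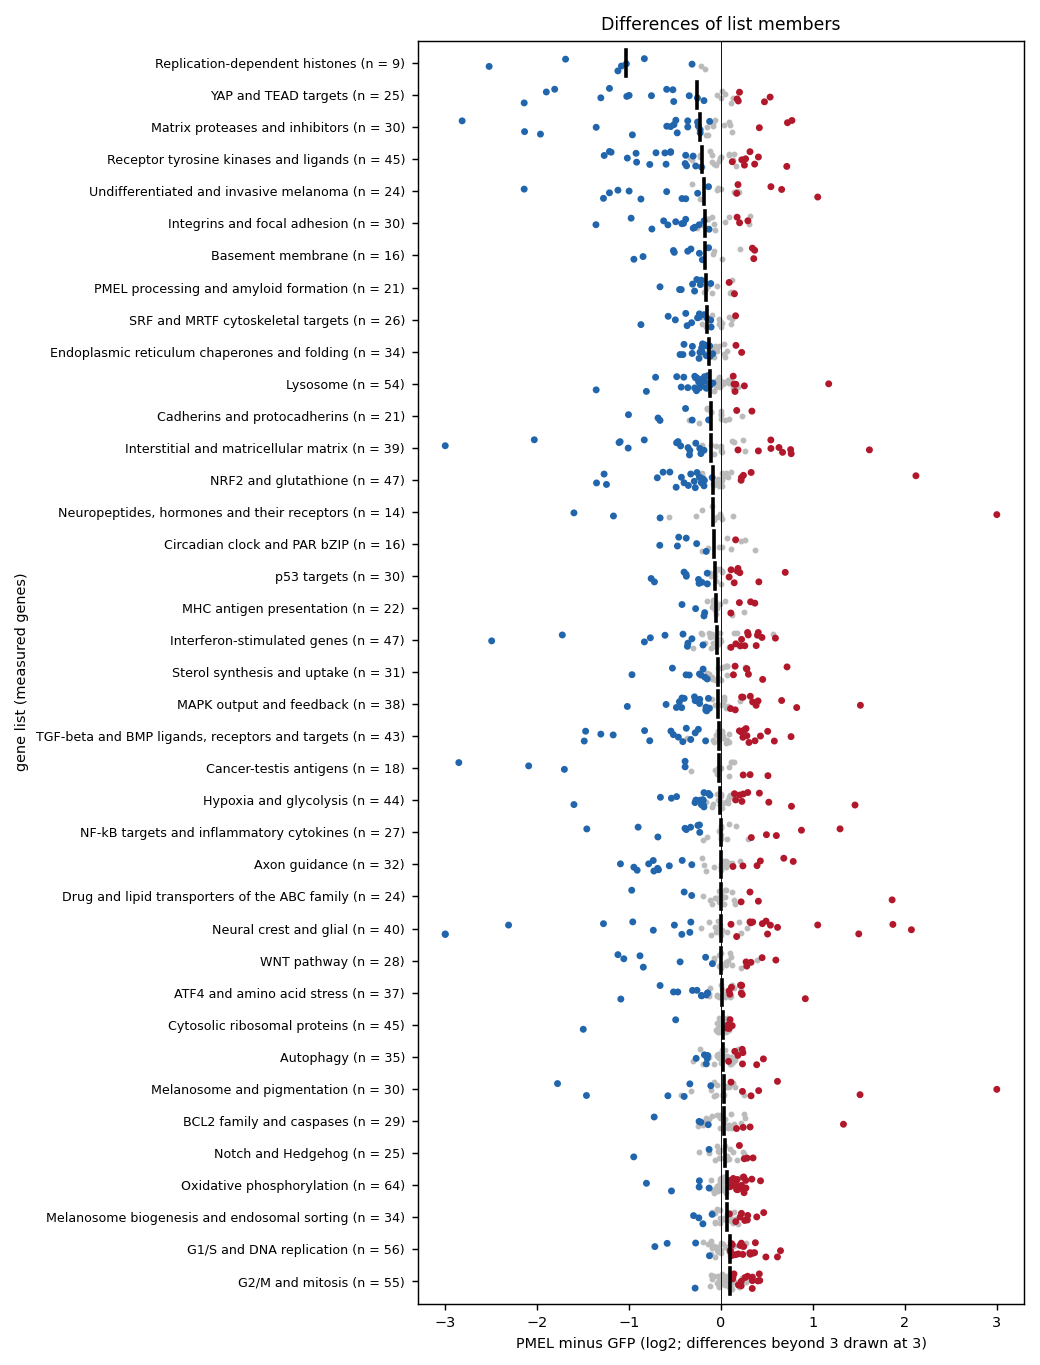
PMEL minus GFP differences (log2) of the measured genes of 39 lists with 9 or more measured genes, ordered by median (black bar). Red points rose, blue points fell and grey points were not called; 7 of 9 histone genes and 14 of 25 YAP and TEAD targets fell, and the G1/S and G2/M lists lie slightly above 0.

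Several falls of 2-fold or more stood among targets of the co-activator YAP and its DNA-binding partners, the TEAD factors. Cells with active YAP are known to make the matricellular proteins CCN1 and CCN2 and the receptor AXL. Of 25 measured targets, 14 fell (56.0%, against 17.8% of all genes), 9 of them by 1.5-fold or more, and 5 rose, with a median of -0.26. Without replicate 3, 13 fell and 4 rose. NT5E, the surface enzyme CD73 that makes adenosine, was 9.68, 9.64 and 9.62 in the PMEL arrays, against 11.70, 11.85 and 11.82 in the GFP arrays. This was a difference of -2.14 ± 0.057 (SE; adjusted p = 2.89e-14), or 4.41-fold lower in PMEL cells. CCN2, the connective tissue growth factor, was 9.86, 9.73 and 9.89 in the PMEL arrays, against 11.74, 11.78 and 11.67 in the GFP arrays, and its relative CCN1 was 10.39, 10.42 and 10.39 in PMEL against 11.38, 11.41 and 11.40 in GFP. In both genes every PMEL array lay below every GFP array. LHFPL6 differed by -1.81, TGFB2 by -1.31, the receptor kinase AXL by -1.21 and the membrane-repair protein MYOF by -1.03. With values under log2 4 set to 4, AXL differed by -0.98. Tissue factor, F3, differed by -0.76 (adjusted p = 0.103 without replicate 1). AMOTL2 was not called (0.01, adjusted p = 0.963). TEAD1 rose slightly, by 0.19.

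The promoter of CCN2 is shown because it carries the TEAD motif GGAATG more than once just ahead of its start. The 150 bases before the RefSeq start of CCN2 (GRCh38.p14, chr6:131951373-131951522, minus strand) are given 5′ to 3′ with each GGAATG in capitals, searched on both strands.
CCN2: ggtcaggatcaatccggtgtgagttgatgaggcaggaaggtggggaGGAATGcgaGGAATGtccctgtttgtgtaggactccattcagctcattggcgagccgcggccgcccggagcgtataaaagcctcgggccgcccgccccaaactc
The window holds 2 such matches and the 250 bases before the start hold 3. GGAATG was found in 11.9% of the 27305 RefSeq promoters at that length in 4 of the 17 measured YAP and TEAD targets with a promoter sequence, and in 2 of the 10 of these that were called lower, CCN2 and TGFB2. The windows of NT5E, AXL and MYOF hold none, while those of PTPN14, which rose by 0.18, and FOXF2, which was not called (0.04, adjusted p = 0.734), hold 1 each. A match describes the letters and not a bound site, and these arrays do not measure binding.

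Genes of the actin cytoskeleton that answer to SRF and its co-activator MRTF differed by small amounts, mostly downward. Of 26 measured, 13 fell (50%) and 1 rose, with a median of -0.16; without replicate 3, 11 fell and 1 rose. TPM1, a tropomyosin, was 12.43, 12.45 and 12.39 in the PMEL arrays, against 13.26, 13.30 and 13.32 in the GFP arrays, the one change of 1.5-fold or more. ACTA2, smooth muscle actin, differed by -0.57, TGFB1I1 by -0.50 and CNN3 by -0.37. FHL2, a LIM-domain partner of SRF and the gene targeted in other arms of the series, differed by -0.20 (adjusted p = 0.293) and was not called; NFYA, at 0.10 (adjusted p = 0.462), was not called either. SRF (0.09) and ACTB (-0.02) were not called, with adjusted p = 0.627 and 0.693.

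Adhesion receptors fell alongside. Of 30 measured integrins and adhesion proteins, 14 were lower (46.7%) and 3 higher, with a median of -0.18; without replicate 3, 14 were lower and 4 higher. The collagen receptor subunit ITGA1 was 9.17, 8.96 and 8.94 in the PMEL arrays, against 10.36, 10.33 and 10.47 in the GFP arrays, with a difference of -1.36 ± 0.092 (SE; adjusted p = 5.06e-09). ITGA10, another collagen-binding subunit, differed by -0.98, ITGA2 by -0.62, and ITGB3, the beta chain of the vitronectin receptor, by -0.75, although 1 of its 6 probe sets had the opposite sign. ITGA3 and ITGA5, partners of the beta-1 chain for laminin and fibronectin, differed by -0.58 and -0.49. PTK2, the focal adhesion kinase, was not called (-0.07, adjusted p = 0.185).

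Extracellular matrix genes moved in both directions, with more falls. Of 39 interstitial and matricellular genes, 16 fell (41.0%, against 17.8% of all genes). Rises numbered 9 (23.1%), close to the 22.1% of all genes. Without replicate 3, 17 fell and 9 rose. OLFML3, a secreted olfactomedin-domain protein, was 6.27, 6.41 and 6.47 in the PMEL arrays, against 9.59, 9.79 and 9.57 in the GFP arrays, 9.63-fold lower in PMEL cells. LUM, the collagen-binding proteoglycan lumican, was 9.05, 9.04 and 9.14 in the PMEL arrays, against 11.01, 11.27 and 11.05 in the GFP arrays. COL8A1 and COL12A1 differed by -1.11 and -1.10, and the cross-linking enzyme LOXL3 by -0.84. In the other direction, FBLN5 of the elastic fibre was 5.66, 5.58 and 5.79 in PMEL against 4.08, 4.16 and 3.94 in GFP, FBN1 rose by 0.76, the matricellular protein CCN3 by 0.76, fibronectin, FN1, by 0.54 and the proteoglycans VCAN and BGN by 0.63 and 0.67 (for BGN, adjusted p = 0.0755 without replicate 1). Basement membrane genes fell in 9 of 16 and rose in 3 (8 and 2 without replicate 3): NTN4 differed by -0.95 and the laminin chain LAMA2 by -0.85, while COL18A1 rose by 0.37.

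LUM and COL1A2 also belong to the fibroblast markers. Of the 5 of 10 such markers measured, 4 fell (4 without replicate 3), their summed signal was 1176 to 1213 in the PMEL arrays and 2895 to 3304 in the GFP arrays, and COL1A2 lay under log2 4 in both arms. Melanoma cells are known to express several of them, and their part in the matrix result was not tested.

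Matrix proteases and their inhibitors fell in 17 of 30 (56.7%) and rose in 3, with a median of -0.23; without replicate 3, 15 fell and 2 rose. CSTA, an inhibitor of cysteine proteases, was 4.15, 3.86 and 3.84 in the PMEL arrays, against 6.64, 6.79 and 6.88 in the GFP arrays. The metalloprotease ADAM12 was 5.48, 5.40 and 4.88 in the PMEL arrays, against 7.03, 7.38 and 7.77 in the GFP arrays, and the serpins SERPINA5 and SERPINI1 differed by -1.96 and -0.96. TIMP1, an inhibitor of metalloproteases, differed by -0.48. The gelatinase MMP2 went the other way, with 9.94, 9.88 and 9.84 in PMEL against 9.25, 9.03 and 9.21 in GFP, and ADAMTS9 was higher by 0.77, but was not called without replicate 3 (adjusted p = 0.0631).

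In the TGF-beta family 15 of 43 measured genes fell (34.9%, against 17.8% of all genes) and 12 rose (27.9%, against 22.1%). Without replicate 3, 13 fell and 10 rose. Of the 6 falls of 1.5-fold or more, 5 were of secreted ligands and their binding partners. TGFB1 was 5.53, 5.53 and 5.23 in the PMEL arrays, against 6.70, 6.94 and 7.11 in the GFP arrays, TGFB2 differed by -1.31, BMP6 by -0.78, and the follistatin-related FSTL1 and FST by -1.47 and -1.17. SMAD9, an intracellular transducer of BMP signals, was the other, at -0.83, but was not called without replicate 3 (adjusted p = 0.0505). The receptors TGFBR2 and TGFBR3 differed by -0.42 and -0.54. Other intracellular members included rises: SMAD4 and SMAD5 rose by 0.30 and 0.24, the inhibitory SMAD6 by 0.51 and the BMP target ID3 by 0.43, whereas SMAD7 (-0.02, adjusted p = 0.886) and ID1 (0.03, adjusted p = 0.639) were not called. LTBP1, which holds latent TGF-beta in the matrix, rose by 0.76.

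In the WNT pathway 7 of 28 measured genes fell (25.0%, against 17.8% of all genes) and 5 rose (17.9%, against 22.1%). Without replicate 3, 5 fell and 3 rose. The 4 falls of 1.5-fold or more were all secreted proteins. WNT5A, a ligand of the non-canonical branch, was 10.25, 10.44 and 10.29 in the PMEL arrays, against 11.38, 11.48 and 11.49 in the GFP arrays. The inhibitors DKK1, DKK3 and SFRP1 differed by -1.06, -0.85 and -0.88. The R-spondin receptor LGR4 rose by 0.60, LEF1 by 0.33 and the co-receptor LRP6 by 0.28. CTNNB1, beta-catenin, was not called (-0.02, adjusted p = 0.69).

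Growth factor receptors and ligands fell in 18 of 45 (40%), 10 of them by 1.5-fold or more, and rose in 8; without replicate 3, 15 fell and 5 rose. KDR, the VEGF receptor, was 5.69, 5.57 and 5.41 in the PMEL arrays, against 6.68, 6.83 and 6.96 in the GFP arrays, and it is also the single endothelial marker measured. KITLG, the ligand of KIT, differed by -1.20, VEGFC by -0.92, FLT1 by -0.78, EPHA4 by -1.02 and PDGFRA by -0.55. With values under log2 4 set to 4, EPHA4 differed by -0.705. The rises were smaller, with ERBB3, the neuregulin receptor of the melanocyte lineage, at 0.31 and IGF1R at 0.41, and only the ephrin EFNB3, at 0.72, reached 1.5-fold.

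Transcripts of the MAPK pathway moved in both directions. Of 38 measured genes, 11 rose (28.9%) and 16 fell (42.1%); without replicate 3, 9 rose and 12 fell, and with the array set as a block 8 rose and 8 fell. FOS, an immediate-early gene, which cells transcribe soon after a stimulus, was 8.65, 8.47 and 8.50 in the PMEL arrays, against 7.07, 6.94 and 7.06 in the GFP arrays, with a difference of 1.52 ± 0.095 (SE; adjusted p = 1.81e-09). EGR1 was 9.91, 9.95 and 9.90 in the PMEL arrays, against 9.05, 9.12 and 9.12 in the GFP arrays, and JUN was 9.81, 9.76 and 9.71 in PMEL against 9.12, 9.03 and 9.16 in GFP. JUNB, IER2 and MYC, which are induced early too, rose by 0.38, 0.24 and 0.40. Other inducible genes of the list were lower, with EGR3 at -0.28, KLF4 at -0.45 and MAFF at -0.43. FOSL1 differed by -0.42. Among feedback genes DUSP4 and DUSP5 differed by -0.49 and -0.29, whereas SPRY1 was higher by 0.32 (adjusted p = 0.176 without replicate 1), and DUSP6 (0.08, adjusted p = 0.428) and SPRY2 (0.03, adjusted p = 0.557) were not called.

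Genes that mark undifferentiated and invasive melanoma fell in 11 of 24 (45.8%), 7 of them by 1.5-fold or more. They rose in 5 (20.8%), 2 of them by 1.5-fold or more, with JUN at 0.66 among these. Without replicate 3, 9 fell and 6 rose. Besides NT5E, AXL, WNT5A and CCN1, which stand in lists above, SOX9 was 10.66, 10.64 and 10.60 in the PMEL arrays, against 11.97, 11.81 and 11.95 in the GFP arrays. This transcription factor of neural crest and cartilage differed by -1.28, while the related SOX2, a stem cell factor, was 8.49, 8.44 and 8.57 in the PMEL arrays, against 7.41, 7.56 and 7.37 in the GFP arrays. The 2 genes thus moved apart by more than 2-fold each. ZEB1 (-0.05, adjusted p = 0.395) and TCF4 (-0.03, adjusted p = 0.885) were not called.

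Neural crest and glial genes were pulled both ways, with 14 of 40 measured higher (35.0%) and 10 lower (25.0%), and 12 and 10 without replicate 3. FOXD3, a pioneer factor of the early neural crest, was 6.68, 6.71 and 6.53 in the PMEL arrays, against 4.71, 5.47 and 5.25 in the GFP arrays. SNAI2, SOX4 and SOX11 rose by 0.49, 0.45 and 0.54, and EMX2 and LDB2 by 2.07 and 1.87; EMX2 averaged 3.01 in GFP cells, near the low end. NPTX1, a secreted neuronal pentraxin, was 7.61, 7.81 and 7.68 in the PMEL arrays, against 10.87, 10.74 and 10.84 in the GFP arrays, 8.68-fold lower in PMEL cells. The adhesion protein CNTNAP4 differed by -3.09, the growth-cone protein GAP43 by -0.96, SNAI1 by -0.51 and TWIST1 by -0.33. SNAI1 and SNAI2, the paralogous repressors of E-cadherin, were thus called in opposite directions.

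Among guidance cues, 11 of 32 measured genes fell (34.4%, against 17.8% of all genes) and 6 rose (18.8%, against 22.1%). Without replicate 3, 10 fell and 6 rose. SEMA3E, SEMA3A and the semaphorin co-receptor NRP1 differed by -1.09, -0.91 and -0.73, and PLXNC1 by -0.79, whereas SEMA6A and PLXND1 rose by 0.79 and 0.68.

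Redox genes were led by 1 rise among many falls. MGST1, a membrane-bound glutathione transferase that protects against lipid peroxidation, was 9.52, 9.46 and 9.35 in the PMEL arrays, against 7.39, 7.16 and 7.42 in the GFP arrays, with a difference of 2.12 ± 0.074 (SE; adjusted p = 7.24e-13). Of the 47 measured genes of the NRF2 and glutathione list, 5 rose and 21 fell (44.7%), and 5 and 17 without replicate 3. The aldo-keto reductases AKR1C1 and AKR1C2 differed by -1.27 and -1.35; they are near-identical copies, so their probe sets may share signal. GPX7 differed by -1.25, SOD2 by -0.40, and 6 metallothioneins fell by amounts from 0.21 (MT1F) to 0.36 (MT1X). The NRF2 targets GCLM (-0.01, adjusted p = 0.903) and TXNRD1 (-0.02, adjusted p = 0.738) were not called. Of 24 ABC transporters, 4 rose and 3 fell (3 and 2 without replicate 3). ABCB4, a phospholipid exporter, was 6.59, 6.33 and 6.11 in the PMEL arrays, against 4.39, 4.36 and 4.70 in the GFP arrays, while ABCA1 (-0.07, adjusted p = 0.541) was not called.

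Inflammatory genes were mixed. Of 47 interferon-stimulated genes, 12 rose (25.5%) and 10 fell (21.3%), close to all genes, and 12 rose and 7 fell without replicate 3. MX1, an antiviral GTPase, was 3.24, 3.15 and 3.10 in the PMEL arrays, against 5.87, 5.37 and 5.72 in the GFP arrays, near the low end of the scale in PMEL cells. IFI44 differed by -1.73, ISG15 by -0.77 and IRF9, part of the interferon-activated complex ISGF3, by -0.61, but IFIT1 (-0.21, adjusted p = 0.108) and OAS1 (0.09, adjusted p = 0.503) were not called and IFITM1 and PLSCR1 rose by 0.45 and 0.41. Among NF-kB targets and cytokines, 9 of 27 fell and 5 rose, but without replicate 3 there were 6 of each. IL1A was 3.33, 3.03 and 3.15 in the PMEL arrays, against 4.70, 4.54 and 4.65 in the GFP arrays, and CXCL8, the chemokine IL-8, was 10.25, 10.28 and 10.28 in PMEL against 10.99, 11.37 and 11.16 in GFP. With values under log2 4 set to 4, IL1A differed by -0.63. IL24, a cytokine of the IL-10 family first found in differentiating melanoma cells, was 9.36, 9.40 and 9.43 in the PMEL arrays, against 8.10, 8.13 and 8.07 in the GFP arrays. The NF-kB subunit RELB rose by 0.87 and the feedback inhibitor TNFAIP3 by 0.49. MHC genes changed by less than 1.5-fold, with 4 of 22 higher and 4 lower (2 and 3 without replicate 3).

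In the metabolic lists, changes of 1.5-fold or more are set beside the 6.54% of all genes with such a call. The hypoxia and glycolysis list held 2 rises and 2 falls of that size among 44 genes. The sterol list held 1 and 1 among 31, and the respiratory chain list 0 and 1 among 64. STC1, a hypoxia-induced hormone, was 7.35, 7.12 and 7.12 in the PMEL arrays, against 8.86, 8.66 and 8.87 in the GFP arrays, and CA12, a membrane carbonic anhydrase, was 4.20, 4.30 and 4.28 in the PMEL arrays, against 3.02, 2.61 and 2.78 in the GFP arrays, though the direction for CA12 depends on the probe set. CA12 lay near the low end of the scale, and with values under log2 4 set to 4 it differed by 0.26. The hypoxia and glycolysis list held 10 rises (22.7%, against 22.1% of all genes) and 15 falls (34.1%, against 17.8%) among 44 genes. Without replicate 3 these were 7 and 13. VEGFA differed by -0.21, while SLC2A1 (0.08, adjusted p = 0.631) was not called. PKM differed by -0.66, but its probe sets did not agree in direction. SREBF1, the regulator of lipid synthesis, rose by 0.72 with its target ACACA at 0.45, and in the sterol list 7 of 31 rose and 9 fell (6 and 8 without replicate 3). The sterol enzymes TM7SF2, SC5D and HMGCS1 differed by -0.97, -0.53 and -0.23. Subunits of the respiratory chain rose by small amounts, 21 of 64 (32.8%) against 5 that fell, with a median of 0.06, and 20 and 5 without replicate 3; NDUFA1 at 0.43 and UQCR10 at 0.33 were the largest rises. SDHD, at -0.81, lies in a run of lower genes on chromosome 11 that is described with the map positions.

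Among cell cycle genes more rose than fell. The numbers not called stand beside a share of 39.9% called over all genes. In the list for G1/S and replication, 32 of 56 genes were not called, 20 rose (35.7%, against 22.1% of all genes) and 4 fell, with a median of 0.10. Of 55 genes of G2/M, 40 were not called, 14 rose (25.5%), 1 fell and none changed by 1.5-fold. Without replicate 3, 15 rose and 4 fell in G1/S, and 9 rose and 0 fell in G2/M. POLE, the catalytic subunit of DNA polymerase epsilon, and CDK2 rose by 0.65 and 0.61, POLE2 and MCM3 by 0.49 and 0.35, and CDC25B by 0.42. CCND3 differed by -0.59, and RFC5 by -0.72 with 1 of its 3 probe sets opposite. With the array set as a block, the rises numbered 7 in G1/S and 5 in G2/M. The cell cycle inhibitor CDKN1A, a p53 target, differed by -0.38, and the pro-apoptotic BMF was 4.64, 5.01 and 4.42 in PMEL against 3.08, 3.36 and 3.64 in GFP. With values under log2 4 set to 4, BMF differed by 0.69.

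Among the lists with 9 or more measured genes, that of replication-dependent histone genes had the lowest median, -1.03 over 9 measured genes. Of these, 7 fell, 6 of them by 1.5-fold or more, and 0 rose. H2AC6 was 4.42, 4.79 and 4.78 in the PMEL arrays, against 7.13, 7.38 and 7.05 in the GFP arrays. H2BC5 was 5.14, 4.12 and 4.44 in the PMEL arrays, against 6.13, 6.26 and 6.37 in the GFP arrays. H2BC12 was 9.86, 9.76 and 9.73 in PMEL against 10.82, 10.86 and 10.92 in GFP, and H2BC21 was 6.70, 6.53 and 6.57 in PMEL against 7.64, 7.58 and 7.67 in GFP. In each of these the PMEL arrays lay below the GFP arrays without overlap. H2BC9 and H2BC6 differed by -1.12 and -0.83, while H2BC4 (-0.22, adjusted p = 0.339) and H4C8 (-0.18, adjusted p = 0.523) were not called. These genes are near-identical copies in clusters, so a probe set may read several of them, and the members are not independent. The array labelling starts from poly-A tails, which the main transcripts of these genes lack, so the signal is that of tailed transcripts. Without replicate 3, and with the array set as a block, 6 fell.

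The promoters of 4 of the histone genes that fell are shown, since histone promoters are known for CCAAT boxes, bound by NF-Y, and octamers, bound by POU2F1. Each is the 150 bases before the RefSeq start (GRCh38.p14), 5′ to 3′ on the gene's own strand, with CCAAT and ATTTGCAT in capitals on either strand. They lie at chr6:26124022-26124171 on the plus strand (H2AC6), chr6:26157971-26158120 on the plus strand (H2BC5), chr6:27146859-27147008 on the minus strand (H2BC12) and chr1:149886683-149886832 on the minus strand (H2BC21).
H2AC6: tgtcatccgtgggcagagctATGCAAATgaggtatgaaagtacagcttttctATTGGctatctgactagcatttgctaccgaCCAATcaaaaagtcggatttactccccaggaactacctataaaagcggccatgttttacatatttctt
H2BC5: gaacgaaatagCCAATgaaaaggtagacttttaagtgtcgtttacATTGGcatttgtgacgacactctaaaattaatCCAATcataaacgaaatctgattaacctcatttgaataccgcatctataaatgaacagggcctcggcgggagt
H2BC12: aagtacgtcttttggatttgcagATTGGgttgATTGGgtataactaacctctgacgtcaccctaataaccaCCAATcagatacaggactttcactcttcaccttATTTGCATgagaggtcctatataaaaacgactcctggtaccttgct
H2BC21: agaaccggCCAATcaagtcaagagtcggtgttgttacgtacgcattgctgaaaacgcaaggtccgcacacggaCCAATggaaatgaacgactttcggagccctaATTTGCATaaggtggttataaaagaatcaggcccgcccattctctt
In the 250 bases before the start, CCAAT was found in all 7 histone genes that fell and in 8 of the 9 measured, against 33.0% of 27305 promoters. ATTTGCAT was found in 5 of the 7 and 6 of the 9, against 1.66% of promoters. H2BC4, which was not called, holds both motifs as well. NFYA, a subunit of NF-Y, was not called, as given above.

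Falls were also gathered on the map. A run of neighbouring genes on chromosome 11, from ALKBH8 to PTS in the RefSeq order of GRCh38.p14, was chosen after its values were seen and is given with no test. Of its 27 tested genes, 24 fell (against 17.8% of all genes), 18 by 1.5-fold or more, 0 rose, and the median was -0.63. The 3 that were not called were COLCA1 (0.04, adjusted p = 0.754) and HSPB2 and PIH1D2, both near the low end of the scale in both arms. The widest fall of the run was that of ARHGAP20, a GTPase-activating protein, which was 2.99, 2.66 and 2.78 in the PMEL arrays, against 6.81, 6.99 and 6.96 in the GFP arrays. The run includes ATM, the DNA damage kinase, which was 8.60, 8.65 and 8.72 in the PMEL arrays, against 9.76, 9.60 and 9.59 in the GFP arrays. ALG9, a mannosyltransferase of N-glycan assembly, was 4.76, 5.18 and 5.30 in PMEL against 6.57, 6.59 and 6.25 in GFP, and the phosphatase scaffold PPP2R1B differed by -1.29. The small heat shock protein CRYAB differed by -2.31, CUL5 by -0.59, ACAT1 by -0.63, and PTS, of tetrahydrobiopterin synthesis, by -0.83. Whether the genes of the run share functions was not tested. Of the 20 genes tested just before the run, 5 fell and 1 rose, and of the 20 just after it 3 fell and 4 rose. Without replicate 3, 23 of the 27 fell. The arrays measure RNA, and the cause of the shared fall was not tested.

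**Figure D5:**
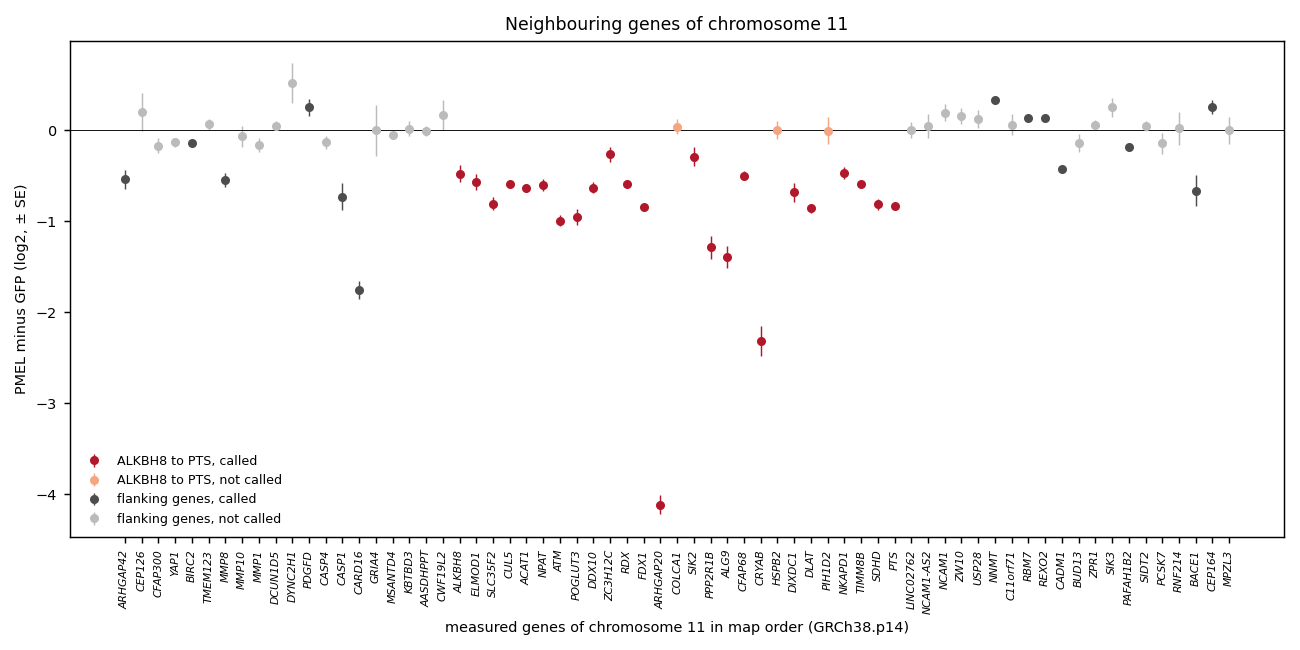
PMEL minus GFP differences (log2, ± SE from the fit) of 67 neighbouring tested genes of chromosome 11 in map order. The genes from ALKBH8 to PTS (red where called, orange where not) lie below 0 apart from 3 at about 0; the 20 genes on each side (dark grey where called, light grey where not) lie mostly around 0.

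Several lists had shares of called genes near or below those of all genes. Autophagy had 8 of 35 higher and 5 lower (3 and 3 without replicate 3), Notch and Hedgehog 4 of 25 higher and 2 lower (4 and 1), and the BCL2 family and caspases 4 of 29 higher and 4 lower (6 and 5). Cytosolic ribosomal proteins were the flattest, with 38 of 45 not called, 5 higher and 2 lower (3 and 2 without replicate 3) and a median of 0.02. RPL37A, at -1.50, departed from them, and 1 of its 2 probe sets had the opposite sign. Cadherins and protocadherins had 2 of 21 higher and 6 lower (2 and 5 without replicate 3), led by the desmoglein DSG2 at -1.01. Among cancer-testis antigens, 5 of 18 fell and 3 rose (5 and 2 without replicate 3): SPATS1 was 8.49, 8.52 and 8.42 in PMEL against 11.33, 11.27 and 11.39 in GFP, MAGEA10 differed by -2.09 and SSX1 by -1.70, whereas MAGEA4 (0.11, adjusted p = 0.454) was not called and PRAME rose by 0.32.

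Outside the lists, the largest rises with a level of log2 4 or more in both arms included FXYD3, a regulator of the sodium pump, with 12.25, 12.31 and 12.34 in PMEL against 10.90, 10.86 and 10.82 in GFP, and IGFBP5, an insulin-like growth factor binding protein, with 10.18, 10.14 and 10.22 in PMEL against 8.78, 9.02 and 8.83 in GFP. P2RX5, an ATP-gated channel, rose by 1.20, the potassium channel KCNJ10 by 1.22, the transporter SLCO5A1 by 1.28 and the neural tube protein PRTG by 1.45. POTEM, also among them, belongs to a family of near-identical copies and its value, 1.64, is uncertain. The largest falls included the neural adhesion protein CHL1, with 7.91, 7.93 and 8.01 in PMEL against 10.22, 10.63 and 10.33 in GFP, and the neuritin gene NRN1, with 5.97, 5.31 and 5.32 in PMEL against 7.96, 8.09 and 8.34 in GFP. P3H2, a collagen prolyl hydroxylase, differed by -2.70, the cytokine IL37 by -2.43, the actin-severing SCIN by -2.39 and TENT5C, a poly-A polymerase, by -2.38. In each of these the arms did not overlap.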

How the data were processed

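The authors deposited log2 signals per probe set. GCRMA is the tool named in the submitters' processing notes, without a version. RNA was labelled for Affymetrix 3′ arrays, per the labels' protocols. Of 23416 probe sets, 20264 named 1 gene, 995 several and 2099 none. Probe sets at log2 4 or more in at least 3 arrays were kept, and each gene was read by its probe set of highest mean (10940 genes).

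The model was limma 3.58.1 (R 4.3.3; 1 mean a group, eBayes with a trend) over 17 arrays, with 11 residual degrees of freedom and p-values adjusted by Benjamini-Hochberg over all genes. C32 GFP replicate 3 was left out because it lay on the mean of its other arrays (SD 0.00746, against 0.108 to 0.171 elsewhere). Gene lists were described by counts and medians, without set tests; 1 list is not reported here. The members and lists were chosen with earlier results of these data known. Genes named are PMEL, FHL2 and NFYA, the 25 largest rises and falls of at least 2-fold, and in each list the called members of 1.5-fold or more and up to 6 with the smallest adjusted p; other list members are given with their values.

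The numbers were not used as pairs. The deviations of same-numbered arrays from their group means had correlations of -0.25, -0.18 and -1.00. The value of -1.00 is the tie between the arrays of number 3 described above. Deviations cancel within a group, so the tie also pulls the correlations among arrays 1 and 2 downward. Those between array 1 of one arm and array 2 of the other were -0.21 and -0.20. These correlations therefore cannot show whether same-numbered arrays were pairs. The reported fit treats the arrays as independent, so its SEs and p-values make no allowance for that tie. On simulated data for this comparison over 10940 genes, 42, 76, 98 and 100% of changes of log2 0.25, 0.5, 1 and 2 were recovered, with 13 false calls. The simulated arrays were drawn independently of each other. They lack the tie between the arrays of number 3, so these rates do not cover it. The number of arrays limits precision: the median SE was 0.071. Promoter sequences are from RefSeq (GRCh38.p14), matched by symbol. Figures were made in Python 3.11.15 (matplotlib 3.10.9).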

Additional observations from a re-analysis of the deposited data

How the results depend on the processing

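Of the genes called, 4365 in the reported fit, 3250 to 4078 were called when an array or a number was left out, and between 626 and 657 at a moderate size (632 as reported). Blocks on the 6 arrays alone moved the total most, to 1506 with the replicate block and to 2399 with the array set block; the smaller number of residual degrees of freedom (2 and 3) is part of their construction. With the replicate block, 445 genes were called at a moderate size and 223 at 2-fold or more. Over 17 arrays the replicate block gave 4068. Median centring gave 4172, with 49.4% of them higher in PMEL against 55.4% as reported. Of 183 named genes called at 1.5-fold or more, 6 were not called without replicate 3 (ADAMTS9, GPX3, GSTM4, PCDH9, PLK3 and SMAD9). With the array set block on 6 arrays, 17 were not, among them ATF3, BGN, CHAC1, CTSS, F3, GAP43 and PLXNC1, and with the replicate block 29. Among 26 settings, 15 named values changed sign. With the probe set of largest variance these were ATP6V1C1 at 0.0163, CLOCK at 0.2263, COX7B at -0.168, DNAJC10 at 0.0782, FKBP14 at 0.0106, PKM at 0.0179, RPS27L at -0.5431, SCD at -0.2459, STX3 at -0.1906 and UQCRC2 at -0.4515, where another probe set stands for the gene. With the mean of probe sets they were NFYA at -0.0747, RPS27L at -0.0721 and SCD at -0.0917, and with no filter CA12 at -0.423. NFYA, not called as reported, ranged from -0.0659 without replicate 1 to 0.231 without replicate 3. Except where a probe set or the residual degrees of freedom are named, the cause was not tested.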

Other observations

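Some lists were not described above. Of 16 clock genes 6 fell and 1 rose, but without replicate 3 of both arms 3 fell and 0 rose, and with the array set as a block 1 fell and 0 rose. BMAL1, the partner of CLOCK, was at -0.67 (adjusted p = 0.0704 in that block). Of 30 p53 targets 8 rose (26.7%, against 22.1% of all genes) and 10 fell (33.3%, against 17.8%), but without replicate 3 these were 5 and 8 and with the array set as a block 2 and 3. TP53INP1 was at 0.70 and SPATA18 at -0.72 (adjusted p = 0.0613 in that block). Among 14 neuropeptides, hormones and their receptors 1 rose and 3 fell, with or without replicate 3: TAC1, the precursor of substance P, differed by -1.17 and VGF by -0.66.

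Called genes were spread unevenly over the chromosomes, a pattern seen in the data and given with no test. On chromosome 15, 51.8% of 363 genes rose and 5.79% fell, with a median difference of 0.18. On chromosome 18, 42.7% of 178 rose and 7.87% fell, with a median of 0.16. On chromosome 16, 9.38% of 448 rose and 29.5% fell, and on chromosome 21, 15.2% of 112 rose and 31.2% fell. Over all genes 22.1% rose and 17.8% fell. Without replicate 3, 41.9% of the genes of chromosome 15 rose and 39.9% of those of chromosome 18. The cause was not tested.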
